A study of Mus musculus with 6 samples.

Results

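Lysosomes break down proteins, glycans and lipids with hydrolases that work in an acid lumen, and autophagy delivers cytoplasmic material to them inside double-membrane vesicles. The lumen is acidified by the vacuolar proton pump, and the transcription factors TFEB and TFE3 bind E-box sequences near the start of many of these genes. Neurons do not divide and rely on this route to clear aggregated proteins and worn organelles, and inherited defects in several of the genes below cause storage diseases of the nervous system. The values here are messenger RNA levels of 46 lysosome and autophagy genes, taken by gene symbol from a table of 24318 genes. All 46 symbols had a row, and 43 of them averaged 1 FPKM or more and were tested. FPKM is the number of sequenced fragments divided by transcript length and by library size.

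All libraries came from 1 cell line, CAD, which derives from the mouse catecholaminergic line Cath.a and grows as a neuronal line in culture. Of the 6 libraries, 3 came from cells given an siRNA against circGigyf2, a circular RNA of the Gigyf2 gene (labelled siCircGigyf2 here), and 3 from cells given a control siRNA (siNC). The labels state total RNA depleted of ribosomal RNA, and give no dose, time or batch. The series concerns circular RNAs in Alzheimer disease, and the comparison asks which RNAs differ once this circle has been targeted. No row of the gene table was matched to the circle, so its own level was not analysed here. Nothing in the labels says that replicates were separate cultures, and the p-values then reflect only the spread of these samples, possibly a technical one.

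The summed FPKM were 604881 to 624645 with the circGigyf2 siRNA and 578627 to 601552 with the control siRNA. Fragment counts were not given, but the smallest steps in low values put the relative depth, set to 1 for siNC replicate 1, at 0.802 to 0.914 for siCircGigyf2 and at 0.953 and 0.979 for the other siNC libraries. Of 10 genes chosen to mark CAD cells, Chgb, Hand2, Tubb3, Phox2a, Chga and Gata2 were above 14 FPKM in every library, whereas Th lay between 2.82 and 4.85 FPKM, Dbh between 0.925 and 2.14, and Ddc stayed under 0.5. Of the 9 tested, 2 were higher and 5 lower with the circGigyf2 siRNA. Markers of macrophages and microglia, cells with very abundant lysosomal RNA, were near 0. Of 12 such markers, 6 were listed at 0 in all 6 libraries, Ptprc, Itgam and Adgre1 among them, and the sum of the 12 was 0.269 to 0.800 FPKM for siCircGigyf2 against 0.0609 to 0.319 FPKM for siNC. Astrocyte markers gave sums of 0.358 to 0.523 FPKM for siCircGigyf2 against 0.205 to 0.502 FPKM for siNC. Markers of oligodendrocytes and Schwann cells gave 0.901 to 1.26 FPKM for siCircGigyf2 against 0.894 to 1.19 FPKM for siNC. Those of fibroblasts and endothelium gave 10.0 to 11.2 FPKM for siCircGigyf2 against 9.39 to 11.0 FPKM for siNC. Of the 3 tested in this last set, Pecam1 and Pdgfra did not pass. Col1a1 was higher, at 1.47 ± 0.198 FPKM for siCircGigyf2 and 0.924 ± 0.116 FPKM for siNC (limma adjusted p = 0.018). FPKM are shares of a library, so in these bulk samples less RNA per cell and fewer cells of a kind cannot be told apart.

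Genes of the list were more often higher than lower with the circGigyf2 siRNA, by small amounts. Of the 43 genes tested, 19 (44.2%) were higher and 7 (16.3%) lower at a limma adjusted p of 0.05, and 17 did not pass. Over all 11420 genes tested, 19.5% were higher and 18.7% lower, so the share of higher genes stood above the background and the share of lower genes did not. Among the 8677 genes with a mean of at least 5 FPKM, which include 42 of the 43, 23.7% were higher and 21.7% lower. The ratio of the group means lay between 1.08 for Lamp2 and 1.33 for Scarb2 among the 19, and between 0.725 for Wipi2 and 0.911 for Gabarapl2 among the 7. No gene of the list reached a 1.5-fold difference. The median log2 difference over the 43 genes was 0.05, against 0.00035 over all genes, and was 0.0811 without siCircGigyf2 replicate 3. Among the 27 lysosomal members tested, 14 (51.9%) were higher and 4 (14.8%) lower, with a median log2 difference of 0.108. Among the 14 autophagy members, 5 (35.7%) were higher and 3 (21.4%) lower, with a median of 0.0121. Tfeb and Tfe3 were counted in neither set. The groups did not overlap for 28 of the 43 genes (65.1%, against 51.0% of all genes), which include every one of the 26 past the threshold. Of the 28, 20 were higher and 8 lower, against a background of 25.7% of all genes higher and 25.3% lower without overlap. Between replicates, the coefficient of variation of the tested members had a median of 3.09% in the siCircGigyf2 libraries and 2.89% in the siNC libraries.

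**Figure D1:**
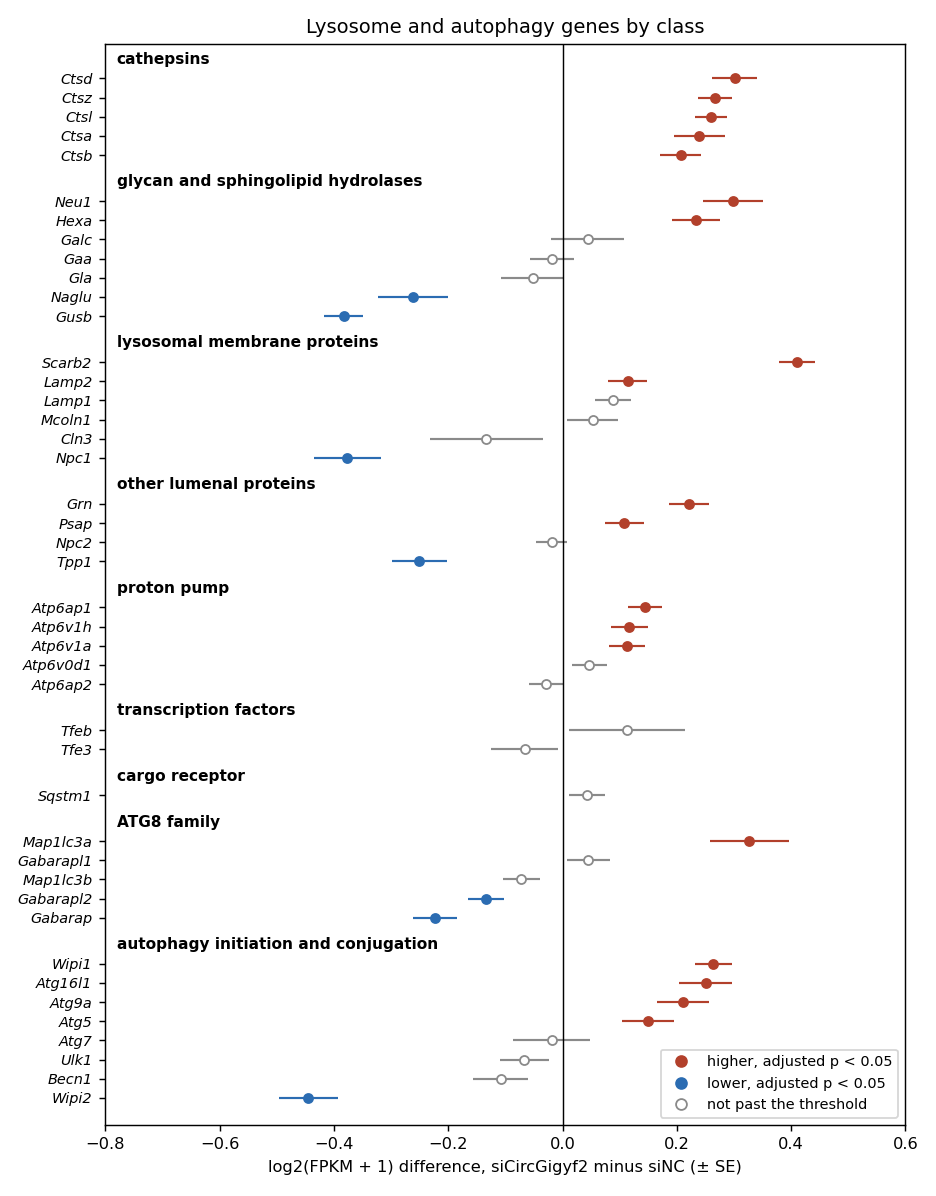
Log2(FPKM + 1) differences of the 43 tested genes, siCircGigyf2 minus siNC, grouped by class, with bars for the standard error from limma. Red points were higher and blue points lower at an adjusted p of 0.05, and open grey points did not pass. The 5 cathepsin genes sit together between 0.21 and 0.30, whereas the other hydrolases reach both 0.30 and -0.38.

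The list spanned a wide range of abundance. Psap, the precursor of the saposins that present lipids to hydrolases, averaged 689.6 ± 8.46 FPKM for siCircGigyf2 and 639.8 ± 21.3 FPKM for siNC (SD, n = 3 each). Ctsd, the aspartic protease cathepsin D, was at 715 ± 12.0 FPKM for siCircGigyf2 and 580.1 ± 27.4 FPKM for siNC. Per length, Psap was thus the most abundant gene of the list with the control siRNA and Ctsd with the circGigyf2 siRNA. Lamp1, a heavily glycosylated protein of the lysosomal membrane, followed at 374 ± 3.16 FPKM for siCircGigyf2 and 352 ± 11.1 FPKM for siNC. The cargo receptor gene Sqstm1 and the ATG8 gene Gabarapl2 came next with the control siRNA, and their means there differed by less than the spread between replicates. Galc was the lowest of the tested genes, at 4.58 ± 0.181 FPKM for siCircGigyf2 and 4.42 ± 0.286 FPKM for siNC. Of the 3 genes not tested, Sgsh, a sulfamidase for heparan sulfate, was at 0.715, 0.791 and 0.825 FPKM for siCircGigyf2 and 0.794, 0.687 and 0.779 FPKM for siNC. Ctsh, an aminopeptidase, was at 0.0734 FPKM at most, and Ctsc, a dipeptidyl peptidase, was listed at 0 in all 6 libraries.

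The RNA of neither TFEB nor TFE3, the factors that drive many of these genes, passed the test. Protein and activity of these factors were not measured here. Tfeb was at 4.81, 6.02 and 5.54 FPKM in the siCircGigyf2 libraries, against 4.14, 5.50 and 5.32 FPKM in the siNC libraries (log2 difference 0.11, SE 0.1, limma adjusted p = 0.416), and Tfe3 was at 16.5, 15.2 and 18.2 FPKM in the siCircGigyf2 libraries, against 17.5, 17.2 and 17.5 FPKM in the siNC libraries (log2 difference -0.07, SE 0.059, limma adjusted p = 0.409). Both had overlapping groups, and Tfeb had the highest coefficient of variation of the 43 tested members between siNC libraries. With a single library left out, the log2 difference of Tfeb lay between 0.00699 (without siNC replicate 1) and 0.186 (without siCircGigyf2 replicate 1), and that of Tfe3 between -0.129 (without siCircGigyf2 replicate 3) and -0.00590 (without siCircGigyf2 replicate 2). The 6 bases CACGTG, the core of the E-box these factors bind, read the same on both strands. RefSeq promoters on GRCm38.p6, running from 250 bases before to 50 bases after a gene's start, were found for 39 of the 46 members and for 8702 of the tested genes. The core was present in 14 of the 39 members (35.9%), against 11.9% of the tested genes. With a T before it or an A after it, TCACGTG on either strand, a form that overlaps the first by construction, it was present in 12 members (30.8%) and in 7.18% of tested genes. Windows of 30 bases are shown for members of each kind of result, with the core in capitals.
Ctsd, higher, 98 bases before the start (chr7:142387908-142387937, minus strand): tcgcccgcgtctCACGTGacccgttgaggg
Ctsa, higher, 12 bases before the start (chr2:164833749-164833778, plus strand): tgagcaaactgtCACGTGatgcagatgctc
Atp6v1a, higher, 131 bases before the start (chr16:44139373-44139402, minus strand): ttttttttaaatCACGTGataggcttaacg
Naglu, lower, 73 bases before the start (chr11:101070009-101070038, plus strand): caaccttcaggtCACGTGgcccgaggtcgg
Lamp1, not past the threshold, 28 bases before the start (chr8:13159121-13159150, plus strand): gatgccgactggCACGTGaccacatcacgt
Mcoln1, not past the threshold, 45 bases before the start (chr8:3500462-3500491, plus strand): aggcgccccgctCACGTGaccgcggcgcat
Genes of each kind of result held the core. It was present in 5 of 15 higher genes with a promoter in the table (Ctsa, Ctsd, Ctsl, Atp6v1a and Atg5), in 1 of 6 lower genes (Naglu), and in 7 of 16 that did not pass (Gla, Gaa, Lamp1, Cln3, Mcoln1, Atp6v0d1 and Atg7). No promoter was searched for Ctsb, Ctsh, Npc1, Atp6v1h, Map1lc3a, Becn1 or Atg16l1.

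The cathepsins, proteases of the lysosomal lumen, rose together. Each of the 5 tested cathepsin genes was higher with the circGigyf2 siRNA, by 1.16-fold to 1.23-fold, whereas 19.5% of all genes tested were higher. Ctsd was at 707, 728 and 708 FPKM in the siCircGigyf2 libraries, against 595, 548 and 597 FPKM in the siNC libraries (log2 difference 0.30, SE 0.04, limma adjusted p = 0.000499). Ctsz, a cysteine carboxypeptidase, was at 189.7, 188 and 189.7 FPKM in the siCircGigyf2 libraries, against 153, 155 and 162 FPKM in the siNC libraries (log2 difference 0.27, SE 0.03, limma adjusted p = 0.000209). The lowest siCircGigyf2 library was above the highest siNC library for both. Ctsl, a cysteine endopeptidase, was at 85.0, 83.3 and 84.3 FPKM in the siCircGigyf2 libraries, against 71.0, 68.9 and 70.6 FPKM in the siNC libraries (log2 difference 0.26, SE 0.028, limma adjusted p = 0.00017). Ctsa, a serine carboxypeptidase that also shields sialidase and beta-galactosidase from degradation, was at 116, 119 and 109 FPKM in the siCircGigyf2 libraries, against 98.9, 91.7 and 100.3 FPKM in the siNC libraries (log2 difference 0.24, SE 0.045, limma adjusted p = 0.00309). Ctsb, a cysteine protease, was at 75.6, 77.2 and 73.3 FPKM in the siCircGigyf2 libraries, against 67.2, 62.4 and 65.9 FPKM in the siNC libraries (log2 difference 0.21, SE 0.036, limma adjusted p = 0.00223). These groups did not overlap either, although siNC replicate 2 was the lowest library for each of Ctsd, Ctsa, Ctsb and Ctsl. The make-up of the class stayed close, with Ctsd giving 60.3% to 60.9% of the summed cathepsin FPKM in the siCircGigyf2 libraries and 59.2% to 60.4% in the siNC libraries. The log2 rise of Ctsd was 0.192 after quantile normalization, still past the threshold. Strand handling was not given, and exons of Ctsl, Ctsb, Ctsa and Ctsz overlap genes on the opposite strand in the GENCODE M21 annotation. Exons of Ctsd and Ctsl also overlap genes on the same strand, Gm49369 (227 bases) and Gm49230 (395 bases), neither of which has a row. The longest of these cathepsin overlaps, 977 bases of Ctsl with Gm47123, could not be measured, since that symbol has no row in the table. That of Ctsz with Nelfcd was 10 bases. Fdft1, a sterol synthesis gene that shares up to 774 bases with a Ctsb exon, averaged 105 ± 2.23 FPKM in siCircGigyf2 and 86.5 ± 1.62 FPKM in siNC and rose by 0.27 on the log2 scale. Neurl2, which shares up to 324 bases with a Ctsa exon, averaged 3.71 ± 0.385 FPKM in siCircGigyf2 and 2.81 ± 0.218 FPKM in siNC and rose by 0.30 (limma adjusted p = 0.0171). Pltp, a phospholipid transfer protein that shares up to 311 bases with a Ctsa exon, averaged 21.8 ± 1.02 FPKM in siCircGigyf2 and 18.1 ± 1.04 FPKM in siNC and rose by 0.26. The part of these genes in the values of the cathepsins was not tested. Members outside this class, such as Becn1, Sqstm1, Npc1 and Atg9a, also share exon bases with other genes, and that was not tested either.

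**Figure D2:**
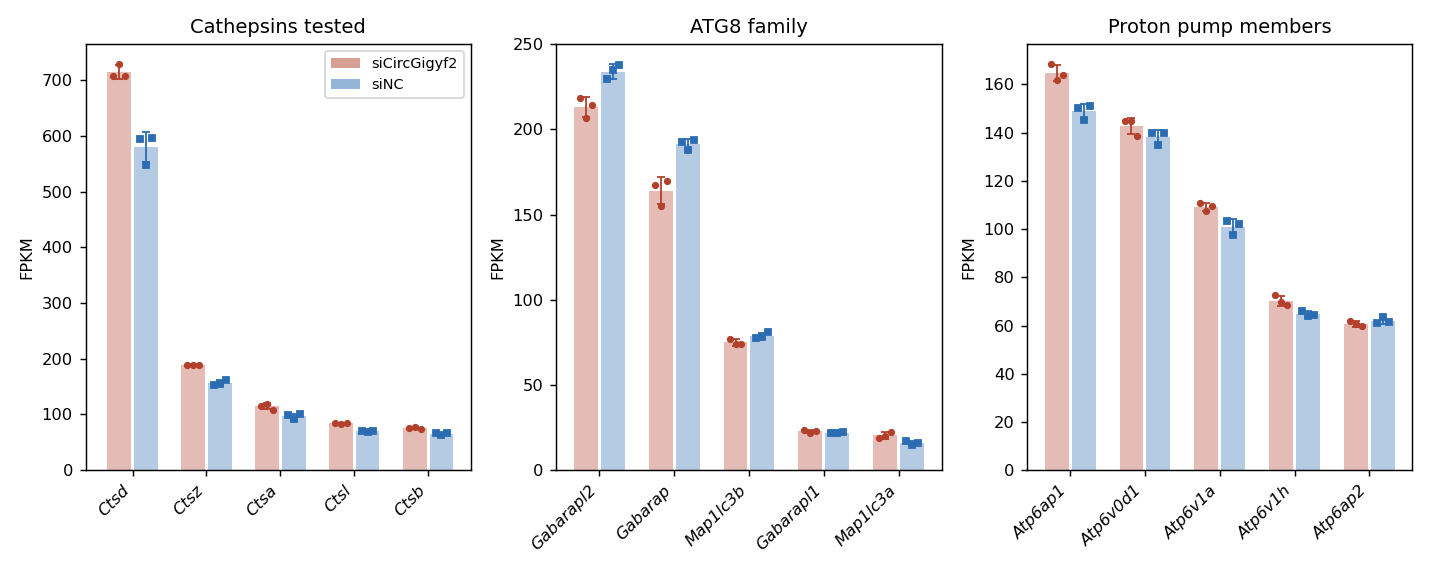
FPKM of the tested cathepsin genes, the ATG8 family and the proton pump members, with siCircGigyf2 in red and siNC in blue. Bars are means, error bars are SD (n = 3 each) and points are libraries. Each cathepsin is higher in red, whereas Gabarap and Gabarapl2, the most abundant ATG8 genes, are lower in red.

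The hydrolases of glycans and sphingolipids did not move together. Of 7 tested, 2 (28.6%) were higher and 2 (28.6%) lower, against 19.5% and 18.7% of all genes. The other 3 did not pass, and the median log2 difference of the 7 was -0.02. Neu1, the lysosomal sialidase, which works in a complex with cathepsin A, was at 14.9, 14.0 and 13.2 FPKM in the siCircGigyf2 libraries, against 10.9, 11.0 and 11.7 FPKM in the siNC libraries (log2 difference 0.30, SE 0.052, limma adjusted p = 0.00221). Hexa, the alpha subunit of beta-hexosaminidase, which degrades ganglioside, was at 139, 136 and 138 FPKM in the siCircGigyf2 libraries, against 119, 109 and 123 FPKM in the siNC libraries (log2 difference 0.23, SE 0.042, limma adjusted p = 0.00262). For both genes every siCircGigyf2 library was above every siNC library. Gusb, beta-glucuronidase, was at 46.2, 49.3 and 48.8 FPKM in the siCircGigyf2 libraries, against 63.1, 61.7 and 64.2 FPKM in the siNC libraries (log2 difference -0.38, SE 0.035, limma adjusted p = 8.02e-05). Naglu, an enzyme of heparan sulfate breakdown, was at 7.29, 7.62 and 8.47 FPKM in the siCircGigyf2 libraries, against 9.94, 9.14 and 9.49 FPKM in the siNC libraries (log2 difference -0.26, SE 0.061, limma adjusted p = 0.00917). Here every siCircGigyf2 library was below every siNC library. Gaa, which degrades glycogen, Gla, an alpha-galactosidase, and Galc, which degrades galactosylceramide, had log2 differences of -0.02, -0.05 and 0.04 with adjusted p from 0.488 to 0.735, and their groups overlapped.

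Among proteins of the lysosomal membrane, Scarb2 and Npc1 moved in opposite directions. Scarb2 encodes LIMP-2, an abundant membrane protein that also carries a hydrolase to the lysosome, and had the largest rise of the list. It was at 190.1, 189.6 and 179.6 FPKM in the siCircGigyf2 libraries, against 139.7, 142 and 138 FPKM in the siNC libraries (log2 difference 0.41, SE 0.032, limma adjusted p = 4.11e-05), a ratio of 1.33. Npc1, which exports cholesterol from the lysosome, was at 15.1, 13.3 and 12.9 FPKM in the siCircGigyf2 libraries, against 18.5, 17.5 and 18.5 FPKM in the siNC libraries (log2 difference -0.38, SE 0.059, limma adjusted p = 0.00124). Its lumenal partner Npc2, which hands cholesterol to NPC1, was at 86.0, 85.5 and 86.6 FPKM in the siCircGigyf2 libraries, against 88.2, 85.6 and 87.7 FPKM in the siNC libraries and did not pass (log2 difference -0.02, SE 0.027, limma adjusted p = 0.613). The groups were thus apart for Npc1 and overlapped for Npc2. Lamp2, a membrane protein with a role in fusion of lysosomes with autophagosomes, was at 115, 107 and 111 FPKM in the siCircGigyf2 libraries, against 104, 99.7 and 104 FPKM in the siNC libraries (log2 difference 0.11, SE 0.035, limma adjusted p = 0.0297). Its call was lost without a filter on low values (adjusted p = 0.0513) and when any single library other than siCircGigyf2 replicate 2 was removed (0.0514 to 0.0928). Lamp1 was at 371, 375 and 377 FPKM in the siCircGigyf2 libraries, against 352, 341 and 363 FPKM in the siNC libraries and did not pass (log2 difference 0.09, SE 0.032, limma adjusted p = 0.055), although its groups did not overlap. It passed after median-of-ratios scaling (adjusted p = 0.0431) and without siNC replicate 3 (0.0429), and its log2 difference was 0.0104 after quantile normalization. Mcoln1, a calcium channel of the lysosome, and Cln3, a membrane protein mutated in juvenile neuronal ceroid lipofuscinosis in human, did not pass (0.05 and -0.13, adjusted p = 0.389 and 0.318). Cln3 had the highest coefficient of variation of the 43 tested members between siCircGigyf2 libraries, at 5.85, 7.64 and 5.50 FPKM against 7.09, 7.23 and 6.63 FPKM in the siNC libraries, and passed as lower without siCircGigyf2 replicate 2 (adjusted p = 0.0163).

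Of the other lumenal proteins, Grn and Psap were higher and Tpp1 was lower. Grn, which encodes progranulin, a precursor of lysosomal granulins, was at 57.1, 58.5 and 60.7 FPKM in the siCircGigyf2 libraries, against 49.5, 49.4 and 51.8 FPKM in the siNC libraries (log2 difference 0.22, SE 0.035, limma adjusted p = 0.00129). Psap was at 679.8, 695 and 694 FPKM in the siCircGigyf2 libraries, against 649.9, 615 and 654 FPKM in the siNC libraries (log2 difference 0.11, SE 0.034, limma adjusted p = 0.0349). This call was lost in more settings than any other of the list, namely without a filter (adjusted p = 0.0662), after quantile normalization (log2 difference 0.00624, adjusted p = 0.897), with the replicate number as a block (0.0525) and without any library but siNC replicate 3 (0.0573 to 0.0970). Tpp1, a tripeptidyl peptidase, was at 39.2, 36.4 and 38.2 FPKM in the siCircGigyf2 libraries, against 47.3, 42.3 and 46.5 FPKM in the siNC libraries (log2 difference -0.25, SE 0.048, limma adjusted p = 0.00341), with no overlap of the groups. In human, mutations of TPP1 cause a form of neuronal ceroid lipofuscinosis, as do those of PPT1, CLN6, CTSD and GRN. These genes, set side by side after their values were seen, went both ways, with Tpp1, Ppt1 and Cln6 lower and Ctsd and Grn higher.

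Of the 5 proton pump members, 3 (60%) were higher, against 19.5% of all genes, and 2 did not pass. Atp6ap1, an accessory subunit, was at 168, 162 and 164 FPKM in the siCircGigyf2 libraries, against 150.1, 145 and 151 FPKM in the siNC libraries (log2 difference 0.14, SE 0.03, limma adjusted p = 0.00513), and its log2 rise was 0.0855 after quantile normalization, still past the threshold. Atp6v1a, the catalytic subunit, was at 111, 107 and 109.6 FPKM in the siCircGigyf2 libraries, against 103, 97.4 and 102 FPKM in the siNC libraries (log2 difference 0.11, SE 0.032, limma adjusted p = 0.021). Atp6v1h, a regulatory subunit, was at 72.7, 69.6 and 68.6 FPKM in the siCircGigyf2 libraries, against 66.0, 63.9 and 64.3 FPKM in the siNC libraries (log2 difference 0.12, SE 0.032, limma adjusted p = 0.0199). The groups did not overlap for these 3 genes, but the differences were near 0.1 and not all calls held. That of Atp6v1a was lost without siCircGigyf2 replicate 1 or 3 or siNC replicate 2 (adjusted p = 0.0622, 0.0549 and 0.0659), and that of Atp6v1h without siCircGigyf2 replicate 1 or siNC replicate 2 or 3 (0.0596, 0.0612 and 0.0633). Atp6v0d1, of the membrane sector, and Atp6ap2, the (pro)renin receptor, had log2 differences of 0.05 and -0.03 (adjusted p = 0.258 and 0.488) and overlapping groups.

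**Figure D3:**
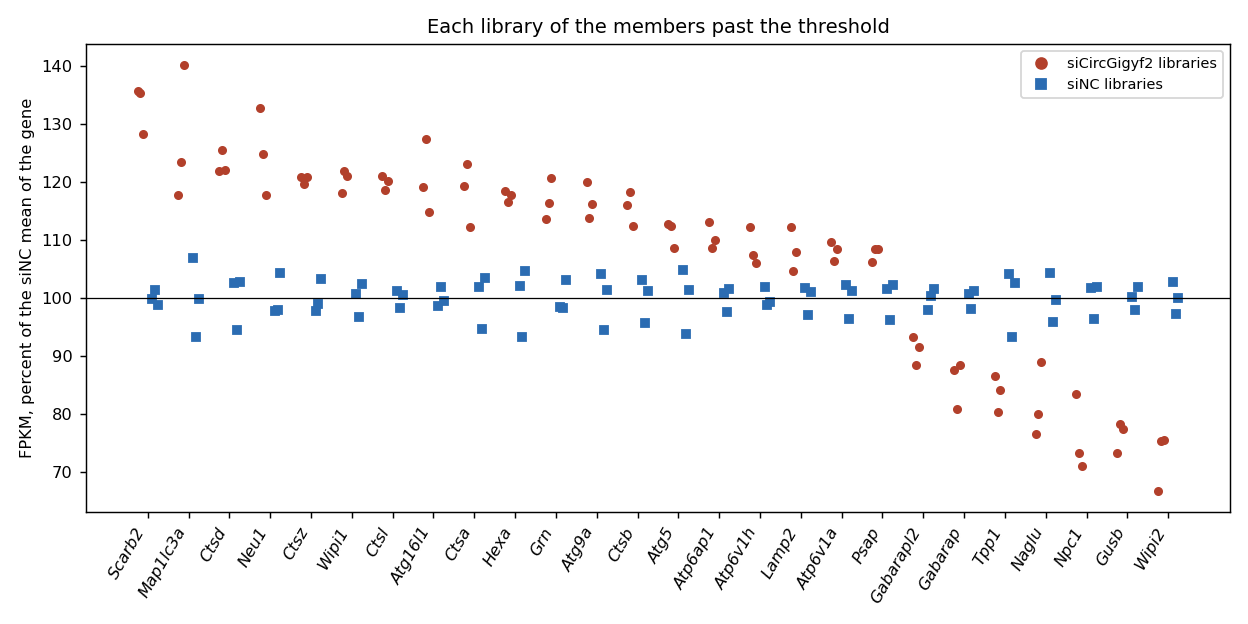
Each library of the 26 genes past the threshold, as a percent of the gene's mean in the siNC libraries, ordered by log2 difference. Red circles are siCircGigyf2 libraries and blue squares are siNC libraries. Of the ratios of group means, that of Scarb2 at 1.33 is the highest and that of Wipi2 at 0.725 the lowest, and no gene has overlapping groups.

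The ATG8 family encodes small proteins that are attached to the lipid of autophagosomes, and its members moved apart. Map1lc3a, of the LC3 branch, was at 19.0, 19.9 and 22.6 FPKM in the siCircGigyf2 libraries, against 17.2, 15.0 and 16.1 FPKM in the siNC libraries (log2 difference 0.33, SE 0.069, limma adjusted p = 0.00565). Gabarap was at 168, 155 and 169 FPKM in the siCircGigyf2 libraries, against 193, 188 and 194 FPKM in the siNC libraries (log2 difference -0.22, SE 0.038, limma adjusted p = 0.00192). Gabarapl2, of the same branch as Gabarap, was at 218, 207 and 214 FPKM in the siCircGigyf2 libraries, against 229, 235 and 238 FPKM in the siNC libraries (log2 difference -0.13, SE 0.031, limma adjusted p = 0.00878). The rise was thus in the least abundant member and the falls in the most abundant. Map1lc3b was at 77.3, 73.9 and 73.8 FPKM in the siCircGigyf2 libraries, against 77.6, 78.1 and 80.9 FPKM in the siNC libraries and did not pass (log2 difference -0.07, SE 0.032, limma adjusted p = 0.107), although its groups did not overlap, and it passed as lower after quantile normalization (adjusted p = 0.0274). Gabarapl1 had a log2 difference of 0.05 (adjusted p = 0.371). As a share of the summed FPKM of the family, Map1lc3a gave 3.75% to 4.49% in the siCircGigyf2 libraries and 2.79% to 3.20% in the siNC libraries, and Gabarap gave 32.4% to 33.7% in siCircGigyf2 and 35.0% to 35.8% in siNC. Gabarapl2 gave 42.6% to 43.3% in the siCircGigyf2 libraries and 42.6% to 43.7% in the siNC libraries, Map1lc3b 14.7% to 15.5% in siCircGigyf2 and 14.4% to 14.7% in siNC, and Gabarapl1 4.54% to 4.63% in siCircGigyf2 and 4.02% to 4.10% in siNC. The share of Gabarapl1 did not overlap between the groups although its level did. A share depends on every member of the sum, and Gabarap and Gabarapl2, which gave most of it, were lower. The gap in share is thus not a result about the level of Gabarapl1. Sqstm1, which binds ubiquitinated cargo and ATG8 proteins, was at 247, 243 and 234 FPKM in the siCircGigyf2 libraries, against 231, 234 and 237 FPKM in the siNC libraries and did not pass (log2 difference 0.04, SE 0.031, limma adjusted p = 0.302).

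Of 8 genes that start autophagosomes or join ATG8 proteins to lipid, 4 (50%) were higher, 1 (12.5%) was lower and 3 did not pass. Over all genes tested, 19.5% were higher and 18.7% lower. Wipi1 and Wipi2, paralogs that bind the phosphoinositide of the forming membrane, moved in opposite directions. Wipi1 was at 76.1, 78.5 and 77.9 FPKM in the siCircGigyf2 libraries, against 64.9, 62.3 and 66.0 FPKM in the siNC libraries (log2 difference 0.26, SE 0.032, limma adjusted p = 0.000314). Wipi2 was at 17.0, 19.2 and 19.2 FPKM in the siCircGigyf2 libraries, against 26.1, 24.8 and 25.4 FPKM in the siNC libraries (log2 difference -0.44, SE 0.051, limma adjusted p = 0.000255), the largest fall of the list. Neither pair of groups overlapped. Atg16l1, which WIPI2 recruits to the membrane, was at 15.5, 16.6 and 15.0 FPKM in the siCircGigyf2 libraries, against 12.8, 13.3 and 12.9 FPKM in the siNC libraries (log2 difference 0.25, SE 0.046, limma adjusted p = 0.00291). Its partner in the conjugation complex, Atg5, was at 25.2, 25.1 and 24.2 FPKM in the siCircGigyf2 libraries, against 23.4, 20.9 and 22.6 FPKM in the siNC libraries (log2 difference 0.15, SE 0.045, limma adjusted p = 0.0295). The call of Atg5 was lost without a filter (adjusted p = 0.0574) and without siCircGigyf2 replicate 1 or 2 or siNC replicate 2 or 3 (0.0787, 0.0717, 0.0878 and 0.0551). Atg9a, a lipid scramblase of the vesicles that seed autophagosomes, was at 18.0, 17.1 and 17.4 FPKM in the siCircGigyf2 libraries, against 15.6, 14.1 and 15.2 FPKM in the siNC libraries (log2 difference 0.21, SE 0.046, limma adjusted p = 0.00657). The kinase gene Ulk1, Becn1 of the lipid kinase complex and Atg7, the activating enzyme for ATG8 proteins, had log2 differences of -0.07, -0.11 and -0.02, with adjusted p = 0.247, 0.103 and 0.852. Becn1 passed as lower without siCircGigyf2 replicate 2 (adjusted p = 0.0173).

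The bases GCCTACA had been picked out earlier from these same differences, as present in the 3' untranslated region (UTR) of many lower genes. Of 10471 tested genes with an annotated 3' UTR, 679 (6.48%) held them. Of these 679, 264 were lower and 88 higher, beside 18.7% lower and 19.5% higher over all genes tested. Of 43 members searched, 5 (11.6%) held them, Wipi2 (chr5:142627698-142670588) and Tpp1 (chr7:105744811-105752235) among these. Wipi2 held 3 copies, 1 of them followed by another A, a form present in 1.38% of genes. The sites of Wipi2 and Tpp1 are shown, with the searched bases in capitals, as those found among the 7 lower genes.
Wipi2, 3' UTR position 2346: gggcaaacctgGCCTACAgagtgagaccct
Wipi2, 3' UTR position 2534: tcccttgtcctGCCTACAccaacaagtgtg
Wipi2, 3' UTR position 2745: ctctgctctctGCCTACAAagctaggtgga
Tpp1, 3' UTR position 1344: agacaagccagGCCTACAtagtcagaccat
Positions are counted from the first base after the stop codon of the GENCODE M21 transcript with the longest coding sequence, and the gene positions are on GRCm38. The other 5 lower genes, Gusb, Naglu, Npc1, Gabarap and Gabarapl2, held none in the transcript searched, and Cln3, Map1lc3b and Sqstm1 held 1 each without passing the test. None of the 19 higher genes held it. Because of how the bases were picked, the match is a description.

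Genes of the same routes outside the list were also more often higher than lower. Of 171 such genes tested, 49 (28.7%) were higher and 30 (17.5%) lower, against 19.5% and 18.7% of all genes, with a median log2 difference of 0.04. Of 31 other hydrolases and cofactors, 13 (41.9%) were higher and 4 (12.9%) lower. Lgmn, the asparagine-specific protease legumain, which processes cathepsins, averaged 205 ± 6.47 FPKM for siCircGigyf2 and 143 ± 7.88 FPKM for siNC (log2 difference 0.52, SE 0.043, limma adjusted p = 5.62e-05). Ppt1, a palmitoyl-protein thioesterase, averaged 15.7 ± 0.549 FPKM in siCircGigyf2 and 24.3 ± 1.88 FPKM in siNC and fell by 0.60 (adjusted p = 9.32e-05). The count of lower genes was 2 without siNC replicate 1 or 3. Of 24 other membrane proteins, 5 (20.8%) were higher and 4 (16.7%) lower, shares near the background, with 2 lower without siNC replicate 1 or 3. Clcn7, the chloride-proton exchanger of the lysosome, and Slc36a1, an amino acid transporter, rose by 0.30 and 0.26 (adjusted p = 0.000914 and 0.000355), and Cln6 averaged 5.21 ± 0.501 FPKM in siCircGigyf2 and 8.28 ± 0.532 FPKM in siNC and fell by 0.58 (adjusted p = 0.000404).

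Of 13 other proton pump subunits, 4 (30.8%) were higher and 2 (15.4%) lower, against 19.5% and 18.7% of all genes. The paralogs Atp6v0e and Atp6v0e2 moved in opposite directions, with Atp6v0e at 132 ± 5.33 FPKM in siCircGigyf2 and 158 ± 7.19 FPKM in siNC and Atp6v0e2 at 48.9 ± 1.30 FPKM in siCircGigyf2 and 41.3 ± 1.63 FPKM in siNC (log2 differences -0.26 and 0.24, adjusted p = 0.00147 and 0.00125). Atp6v1f rose by 0.21 (adjusted p = 0.0191), a call lost without a filter (0.0598), after quantile normalization (0.0614) and without siCircGigyf2 replicate 2 or 3 or siNC replicate 2 (0.0581, 0.0630 and 0.0646). The count of higher subunits was 1 without siCircGigyf2 replicate 3 or siNC replicate 2, without a filter and after quantile normalization, and 2 without siCircGigyf2 replicate 1 or 2. The count of lower subunits was 1 without siCircGigyf2 replicate 1 or 2 or siNC replicate 1 or 3, without a filter and with a filter of 5 FPKM.

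Of 15 tested genes that deliver hydrolases from the Golgi, 2 (13.3%) were higher and 5 (33.3%) lower, against 19.5% and 18.7% of all genes, a gap that rests on few genes. Ap1b1, a subunit of the clathrin adaptor AP-1, averaged 17.0 ± 0.592 FPKM for siCircGigyf2 and 26.8 ± 0.515 FPKM for siNC (log2 difference -0.63, SE 0.038, limma adjusted p = 1.79e-05). The AP-1 subunits, named after their values were seen, went in different directions. The 2 higher genes were Ap1g1 and Ap1s1 (log2 differences 0.14 and 0.17, limma adjusted p = 0.0038 and 0.00382). Ap1m1 did not pass (log2 difference 0.02, limma adjusted p = 0.724). Gga2, a sorting adaptor, fell by 0.37 and Ap3b1, of the adaptor AP-3, by 0.22 (adjusted p = 0.000886 and 0.000478). Whether this list differs from the hydrolases or from other genes was not tested.

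Among 33 other genes of the autophagy machinery, 8 (24.2%) were higher and 7 (21.2%) lower, against 19.5% and 18.7% of all genes. Both shares were near the background. Genes of the SNARE proteins that drive the fusion of autophagosomes with lysosomes went in different directions. Ykt6 averaged 35.4 ± 2.05 FPKM for siCircGigyf2 and 59.2 ± 1.76 FPKM for siNC (log2 difference -0.73, SE 0.044, limma adjusted p = 1.79e-05), and Stx17 averaged 2.18 ± 0.0800 FPKM in siCircGigyf2 and 3.11 ± 0.209 FPKM in siNC (log2 difference -0.37, SE 0.07, limma adjusted p = 0.00353). Of their partners, named after their values were seen, Vamp8 was higher, averaging 7.30 ± 1.29 FPKM in siCircGigyf2 and 5.05 ± 0.671 FPKM in siNC (log2 difference 0.45, SE 0.12, limma adjusted p = 0.014), and Snap29 did not pass (log2 difference -0.03, SE 0.049, limma adjusted p = 0.623). Atg4a, a protease that trims ATG8 proteins, averaged 5.94 ± 0.434 FPKM in siCircGigyf2 and 4.24 ± 0.260 FPKM in siNC (log2 difference 0.41, SE 0.068, limma adjusted p = 0.00169). Higher genes numbered 5 without siNC replicate 2 and 4 without a filter, and lower genes 4 without siCircGigyf2 replicate 2 or siNC replicate 1 or 3. The 3' UTRs of Ykt6, Ap1b1, Ppt1 and Ncoa4, picked out after their values were seen, held GCCTACA. In all 15 of 170 genes searched in these wider lists held it, of which 6 were lower and 5 higher.

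Of 16 other autophagy receptors, 5 (31.2%) were higher and 3 (18.8%) lower, against 19.5% and 18.7% of all genes. Bnip3, a mitophagy receptor that also responds to hypoxia, and Tollip, a ubiquitin-binding adaptor, rose by 0.38 and 0.25 (adjusted p = 0.000445 and 0.000825), and Ncoa4, the receptor for ferritin, averaged 18.9 ± 0.379 FPKM in siCircGigyf2 and 25.7 ± 0.761 FPKM in siNC and fell by 0.43 (adjusted p = 6.77e-05). Higher receptors numbered 3 with the replicate number as a block and without siCircGigyf2 replicate 1 or 3 or siNC replicate 1 or 2. Of 39 genes of mTORC1 and nutrient sensing at the lysosome, 12 (30.8%) were higher and 5 (12.8%) lower, beside the same background. Rragc and Rragd, GTPases that carry amino acid signals to mTORC1 at the lysosome, averaged 31.3 ± 0.581 FPKM in siCircGigyf2 and 25.6 ± 0.598 FPKM in siNC and 27.0 ± 0.635 FPKM in siCircGigyf2 and 21.7 ± 0.455 FPKM in siNC (adjusted p = 0.000359 and 0.000259). Rictor, a subunit of mTORC2 that the list includes, rose by 0.29 (adjusted p = 0.000217). Lower genes of this list numbered 3 without siCircGigyf2 replicate 1 or 2 or siNC replicate 2 and without a filter.

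**Figure D4:**
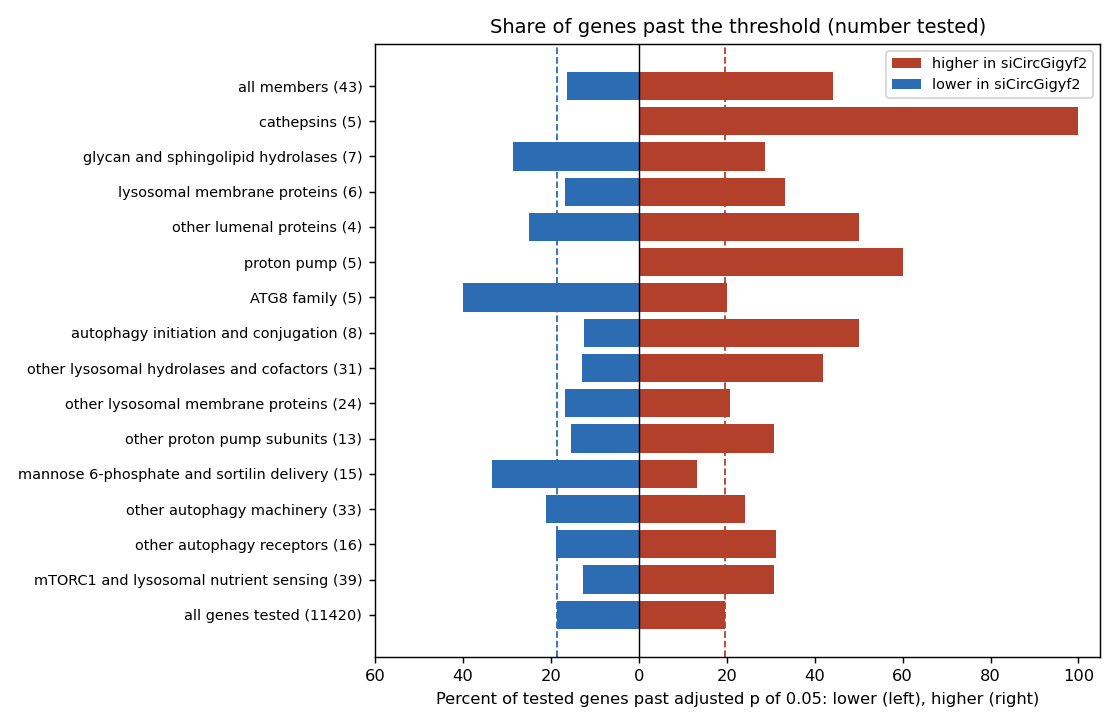
Percent of tested genes past an adjusted p of 0.05, higher in siCircGigyf2 to the right in red and lower to the left in blue, for the members, their classes with more than 3 tested genes and 7 wider lists, with the number tested in brackets. Dashed lines mark the shares over all 11420 genes, 19.5% higher and 18.7% lower. Cathepsins reach 100% on the right, and the delivery genes reach 33.3% on the left.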

How the data were processed

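RNA-seq libraries from CAD cells, 3 siCircGigyf2 and 3 siNC, were compared, with group and replicate number from the sample titles and columns matched by title. The authors deposited 1 table of FPKM, with 1 row per gene symbol. Per the submitters' processing notes the build was mm9. The aligner, quantifier, annotation, further scaling, strand handling and depth are not given in the sources used here. FPKM are not counts, so no count model was used and no counting interval was given.

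Genes with a mean of at least 1 FPKM entered a linear model of log2(FPKM + 1) on group, without covariates, in limma 3.58.1 (R 4.3.3), with trended empirical Bayes and two-sided tests. Adjusted p is by Benjamini and Hochberg over all of these genes, and 0.05 was the threshold. Each difference is siCircGigyf2 less siNC, and the pseudocount of 1 understates those of genes of low FPKM. The members, classes and wider lists were chosen with earlier results of these data known, and no set test was run. Named genes are all members and, of each wider list, the 3 with the smallest p, except that some of these items are not reported here. Relative depth came from the most frequent ratio of values under 0.3 FPKM.

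Promoters came from RefSeq (GRCm38.p6), and 3' UTRs and exon overlaps from GENCODE M21 (GRCm38), joined by symbol with Python 3.11.15 and pandas 2.3.3. In data simulated for this comparison over 11420 genes, the test recovered 38.8% of 1.2-fold, 92.5% of 1.5-fold and 100% of 2-fold changes, with 5 false calls among 159. Few genes were changed in that simulation, whereas 4367 were called in the data. The p-value needed to pass was thus lower in the simulation, and its recovery does not give that in the data. Alternatives were a pseudocount of 0.1, no filter, a filter of 5 FPKM, median-of-ratios scaling, quantile normalization, a replicate block, robust empirical Bayes and each library left out in turn.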

Additional observations from a re-analysis of the deposited data

How the results depend on the processing

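Under 13 alternatives, 21 of the 26 genes past the threshold kept their call and direction in each, 14 higher and all 7 lower. The other 5 (Lamp2, Psap, Atp6v1a, Atp6v1h and Atg5) are described above with the settings that ended their call. Of the 17 genes that did not pass, 4 (Lamp1, Cln3, Map1lc3b and Becn1) passed in at least 1 setting. With a single library left out, 14 to 17 members were higher and 7 to 9 lower, the median member difference was 0.0368 to 0.0811, and 3521 to 3933 of all genes changed. In the settings that left out no library, higher members numbered 16 (no filter) to 20 (median-of-ratios scaling), lower members 7 or 8, and the median member difference lay between 0.0394 and 0.0703. Directions reversed only for genes that had not passed: Sqstm1 was at -0.00338 after quantile normalization, and with a single library left out Gaa ranged from -0.0432 to 0.00991 and Atg7 from -0.0934 to 0.0307. The cause was not tested.

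The correlation of same-numbered deviations from the group means was 0.163, -0.0208 and 0.00253 for replicates 1, 2 and 3. Deviations from a mean of 3 libraries are tied to each other, so these values cannot exclude a pairing by replicate number. With that number as a block in the model, 18 members were higher, 7 were lower and 3973 of all genes changed. The first replicates correlated best with their own number, and the other 4 libraries did not.

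Of 182 counts of the wider lists under these settings, 152 stayed within 1.5 times the main count. Differences of 1.2-fold were recovered in 38.8% of simulated cases, but that simulation had 159 calls against 4367 in the data. The share recovered in the data is thus not known. A gene that did not pass is not shown to be equal between the groups.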
